A study of Mus musculus with 6 samples.

Results

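The E proteins, Id proteins and Ikaros factors are 3 families of nuclear proteins that steer the development and differentiation of lymphocytes. The genes described here are 9, taken from a list of symbols and looked up by name: the E protein genes *Tcf3*, *Tcf4* and *Tcf12*, the Id genes *Id1*, *Id2* and *Id3*, and the Ikaros family genes *Ikzf1*, *Ikzf3* and *Ikzf5*. All 9 were present among the 35602 genes of the count table and among the 34714 genes of the tables for the remaining pair of libraries. CD4+ T cells from mouse spleen were stimulated through CD3 and CD28 for 72 h, and RNA was sequenced from 3 libraries treated with the solvent DMSO and 3 treated with MAPK13-inhibitors (the compound MAPK13-IN-1, which blocks the kinase encoded by *Mapk13*). The comparison asks how transcripts change when this kinase is inhibited during T cell activation. Replicates 2 and 3 of each group were WT, were stimulated in the same way in both groups and received either 17.1 µM of the inhibitor or DMSO, which their labels place after day 1 of culture, whereas the series' design text describes stimulation in the presence of the compound. The labels of the replicate 1 pair give the treatment but no genotype and no dose, and the labels name no strain or age of the mice for any library.

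For replicates 2 and 3 the values were read counts per gene, with totals of 26874805 and 28487403 in the DMSO libraries and 33854760 and 32617702 in the MAPK13-inhibitors libraries. They are given as CPM, scaled by library total and TMM factor, and differences as log2 fold changes of MAPK13-inhibitors over DMSO, tested in 2 libraries against 2. The replicate 1 pair, made with another library kit, is given as FPKM, length-scaled fragments, on the evidence of the values alone since no unit is named. It entered no test, its depth is unknown, and its log2 ratios use a pseudocount of 1, which understates the change of low genes. The sources do not say whether libraries of a group came from separate mice or cultures, so the p-values measure the spread between these libraries only, which may be technical.

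The label of the cells was checked against marker genes. *Cd4* was at 275 and 276 CPM in the DMSO libraries and at 267 and 283 CPM in the MAPK13-inhibitors libraries. Of 8 CD4 T cell markers tested, 0 were higher and 7 were lower with MAPK13-inhibitors, and their summed level went from 1767 and 1799 CPM to 946 and 1069 CPM. T cell transcripts were thus present in every library, and *Cd5* was the most abundant of the list in the DMSO libraries and *Cd4* in the MAPK13-inhibitors libraries. Transcripts of B cells were also present. *Pax5*, the factor that maintains B cell identity, was at 178 and 168 CPM with DMSO and at 263 and 271 CPM with MAPK13-inhibitors. Of 10 B cell markers tested, 7 were higher, 1 was lower (*Cd22*) and 2 did not pass, with summed levels of 2339 and 2261 CPM with DMSO and 3212 and 3128 CPM with MAPK13-inhibitors. *Cd74*, the most abundant, is also made by activated T cells, and without it the sums were 1108 and 1085 CPM against 1291 and 1314 CPM. The replicate 1 pair held less of these transcripts, and most markers had the opposite direction. There 3 of the 10 were higher and 7 lower with the inhibitor (*Pax5* 2.59 to 1.27 FPKM). Their sum without *Cd74* went from 46.8 to 34.8 FPKM, but with *Cd74* it rose from 223 to 250 FPKM. Per kilobase of exon, the level of *Cd79a* was 182% and 170% of that of *Cd4* in the DMSO libraries of replicates 2 and 3 and 209% and 192% in the MAPK13-inhibitors libraries, but 7.99% and 3.73% in the pair. None of the B cell or T cell markers with a value was at 0. In bulk RNA, fewer cells of a type and less RNA per cell cannot be told apart, and the part of B cell transcripts in the results below was not tested. The paper's methods state that the cells were purified with a kit for mouse CD4 T cells.

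E proteins are basic helix-loop-helix (bHLH) factors that bind DNA as dimers at short motifs called E boxes. Id proteins have the dimerization surface but no DNA-binding region, so an E protein paired with an Id protein cannot bind DNA, and the balance of the families helps to set thymocyte maturation and the split between effector, memory and follicular T cells. Ikaros factors are zinc finger proteins that bring chromatin remodelling and deacetylase complexes to their target genes and restrain T cell activation.

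All 9 genes passed the filter on low counts. With an adjusted p-value under 0.05 as the threshold, 6 of the 9 differed between the groups, against 63.8% of the 16269 genes tested. Of these, 3 were higher with MAPK13-inhibitors (31.5% of all genes tested were) and 3 were lower (32.3% of all genes tested). The libraries of the groups did not overlap for 8 of the 9, against 83.0% of all genes. The median log2 fold change of the 9 was −0.11, against 0.01 over all genes tested, and the median size of the change without its sign was 0.42 against 0.52. In the replicate 1 pair 6 of the 9 were lower with MAPK13-inhibitors, against 39.3% of the 15825 tested genes with a value there. These shares are near the background for calls, so the genes are described one by one rather than as a group that moved.

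**Figure D1:**
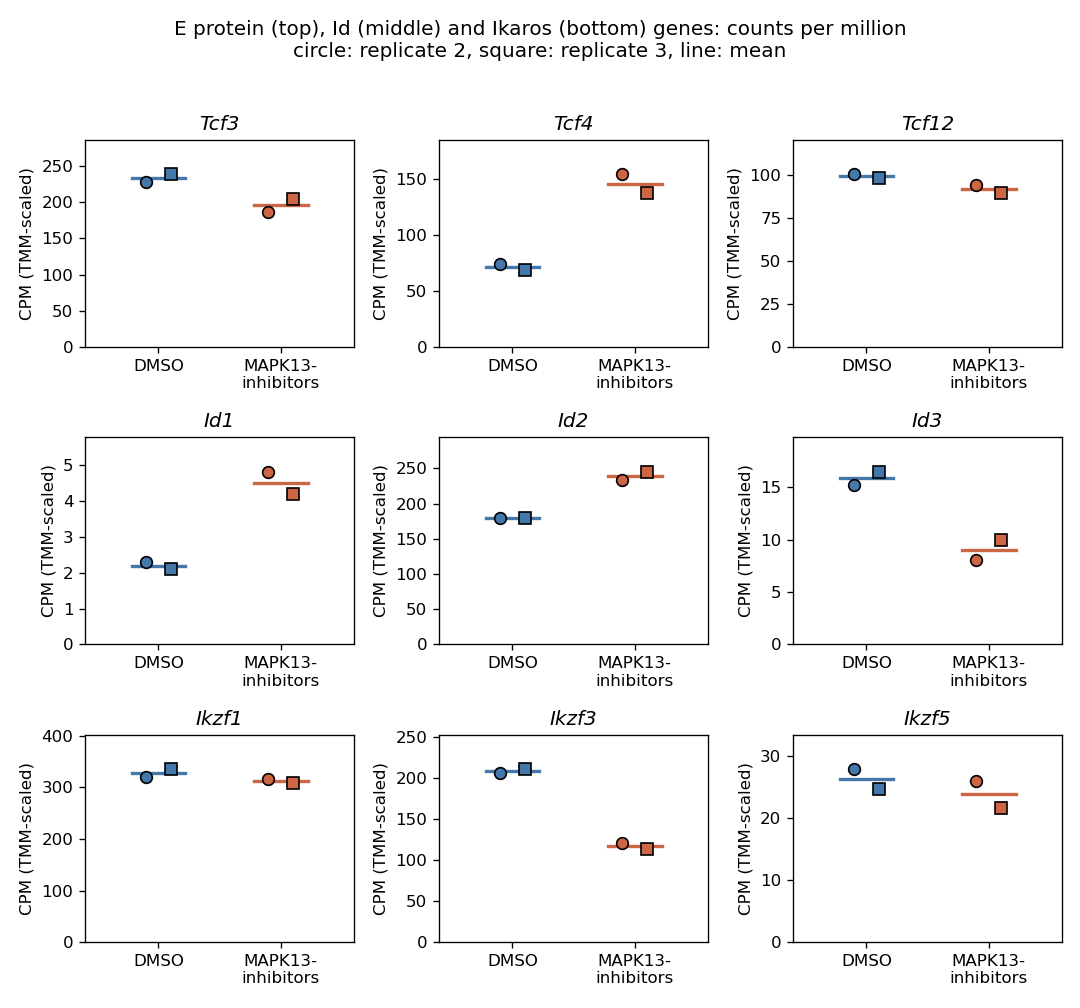
Level of each gene in the 4 count libraries, in TMM-scaled CPM on axes that start at 0 (circles, replicate 2; squares, replicate 3; lines, group means; blue, DMSO; orange, MAPK13-inhibitors). *Tcf4* stood at 74.3 and 69.0 CPM with DMSO and at 155 and 137 CPM with MAPK13-inhibitors, *Ikzf3* at 206 and 211 CPM against 120 and 114 CPM, and the groups overlap for *Ikzf5*.

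Among the E protein genes, *Tcf4* rose. It encodes E2-2, an E protein needed for plasmacytoid dendritic cells and also made in B cells, and lies on chromosome 18 (chr18:69343429-69687967, GRCm38.p6, plus strand). *Tcf4* was at 74.3 and 69.0 CPM in the DMSO libraries and at 155 and 137 CPM in the MAPK13-inhibitors libraries. Both inhibitor libraries were well above both controls, and the gap between groups was several times the gap within either. The log2 fold change was 1.03 with a standard error of 0.07 (edgeR quasi-likelihood test, Benjamini-Hochberg-adjusted p = 1.24e-06). In the replicate 1 pair *Tcf4* went from 1.46 FPKM to 2.69 FPKM, the same direction at a low level. Of 5 markers of plasmacytoid dendritic cells tested, 1 was higher (*Runx2*) and 1 was lower (*Cox6a2*). *Cox6a2* was at 15.6 and 15.7 CPM with DMSO and at 1.41 and 1.42 CPM with MAPK13-inhibitors. In the replicate 1 pair it went from 22.5 to 2.39 FPKM. *Siglech*, which defines these cells, had 0 counts in both DMSO libraries and 6 and 2 counts with MAPK13-inhibitors, too few to test, and 5 genes of the list were higher and 1 lower in the pair. Their summed level, 216 and 216 CPM with DMSO and 208 and 213 CPM with MAPK13-inhibitors, was mostly *Spib*, *Bst2* and *Runx2*, which other lymphocytes also express. The B cell transcription factor *Ebf1*, which is both a B cell marker and an E protein target, rose beside *Tcf4*, from 48.7 and 48.6 CPM to 84.0 and 78.6 CPM.

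*Tcf3* (chr10:80409541-80433976, minus strand) encodes E12 and E47, the E proteins that drive early B and T cell commitment. It was at 228 and 239 CPM with DMSO and at 187 and 205 CPM with MAPK13-inhibitors. The inhibitor libraries were lower than the controls, without overlap, but the gap between the groups was not much wider than that between the MAPK13-inhibitors libraries themselves. The log2 fold change was −0.25 with a standard error of 0.06 (edgeR quasi-likelihood test, Benjamini-Hochberg-adjusted p = 0.00462). *Tcf3* was also lower with the inhibitor in the replicate 1 pair, at 42.9 and 36.4 FPKM. The fall depended on the scaling: with libraries scaled by their totals alone, the median log2 fold change of all genes shifted by 0.13 and that of *Tcf3* was −0.13 (edgeR quasi-likelihood test, Benjamini-Hochberg-adjusted p = 0.084). Relative to the median of all genes it was −0.26 under either scaling. A change of scaling moves all genes nearly alike, so this sameness is no separate evidence of a fall.

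*Tcf12* (chr9:71844252-72111893, minus strand) encodes HEB, the partner of E2A proteins in thymocytes. Its values were 101 and 98.4 CPM with DMSO and 94.5 and 89.8 CPM with MAPK13-inhibitors, and 18.5 and 15 FPKM in the replicate 1 pair. Each inhibitor value lay below each control value, by about the spread within the groups. The log2 fold change of −0.11 (standard error 0.06) did not pass the test (edgeR quasi-likelihood test, Benjamini-Hochberg-adjusted p = 0.144), and it was above 0, at 0.01, with libraries scaled by their totals.

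*Id2* was the most abundant of the 9 genes per length of exon. It encodes an Id protein that is high in effector and innate-like lymphocytes and lies at chr12:25093799-25096092 (minus strand). It was at 179 and 179 CPM in the DMSO libraries and at 233 and 245 CPM in the MAPK13-inhibitors libraries. The controls were nearly equal and both inhibitor libraries were higher. Its log2 fold change was 0.42 with a standard error of 0.06 (edgeR quasi-likelihood test, Benjamini-Hochberg-adjusted p = 8.42e-05). The rise was absent from the replicate 1 pair, with 99.5 FPKM for DMSO and 95.1 FPKM for the inhibitor, a log2 ratio of −0.06.

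*Id3* went the other way. It encodes the Id protein that antigen receptor signals induce through Egr factors and that marks naive, memory and follicular T cells (chr4:136143822-136145392, plus strand). *Id3* was at 15.2 and 16.5 CPM with DMSO and at 8.03 and 9.95 CPM with MAPK13-inhibitors, from 285 to 448 counts per library. Both inhibitor libraries lay below both controls. This was a log2 fold change of −0.82 with a standard error of 0.13 (edgeR quasi-likelihood test, Benjamini-Hochberg-adjusted p = 0.000338). In the replicate 1 pair it went from 4.38 to 3.84 FPKM, a smaller difference in the same direction.

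*Id1* (chr2:152736251-152737410, plus strand), a target of bone morphogenetic protein (BMP) signals that is scarce in T cells, had few reads. It was at 2.29 and 2.1 CPM in the DMSO libraries, from 59 and 57 counts, and at 4.82 and 4.19 CPM in the MAPK13-inhibitors libraries, from 171 and 142 counts. The libraries with the inhibitor were above those without, and the replicate 1 pair moved in the same direction, from 1.15 to 2.50 FPKM. For *Id1* the log2 fold change was 1.04 with a standard error of 0.20 (edgeR quasi-likelihood test, Benjamini-Hochberg-adjusted p = 0.00114). *Id4*, the remaining gene of the family, had 0 counts in all 4 libraries, which allows up to 0.116 CPM in the shallowest of them, and is listed at 0 in the replicate 1 pair.

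The families were next set beside each other on a scale that allows levels of different genes to be compared, CPM per kilobase of exon, with exon lengths from the GENCODE vM21 annotation. The Id genes summed to 84.1 and 84.4 in the DMSO libraries and to 104 and 110 in the MAPK13-inhibitors libraries, and the E protein genes to 65.6 and 67.9 and to 58.0 and 61.5. The Id sum divided by the E protein sum was therefore 1.28 and 1.24 with DMSO and 1.80 and 1.79 with MAPK13-inhibitors. The ratio was higher in both inhibitor libraries than in both controls. The replicate 1 pair had 1.67 with DMSO and 1.88 with the inhibitor in FPKM, but there the Id sum was lower with the inhibitor (105 to 101), and the ratio was higher because the E protein sum was lower by a larger proportion (62.9 to 54.1). In replicates 2 and 3 it mostly follows *Id2*, which made up 87.5% and 87.0% of the Id sum with DMSO and 91.7% and 91.7% with the inhibitor, and *Tcf3*, which made up 86.0% and 87.0% of the E protein sum and then 79.8% and 82.4%. *Tcf4* went from 4.13% and 3.71% of the E protein sum to 9.74% and 8.16%, and from 2.32% to 4.98% in the pair. *Id3* went from 10.1% and 10.9% of the Id sum to 4.30% and 5.06%, and from 4.17% to 3.78% in the pair. The ratio describes transcripts, not proteins, has no test, and depends on the exon lengths, since *Tcf4* and *Tcf12* have annotated exons of 27.4 and 15.5 kilobases that may not all be used.

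In the main test *Ikzf3* had the smallest p-value of the 9 genes. *Tcf4* had a smaller one with, among others, library totals and DESeq2. *Ikzf3* encodes Aiolos, an Ikaros factor of B cells and activated T cells (chr11:98464610-98546031, minus strand). Its level was 206 and 211 CPM in the DMSO libraries and 120 and 114 CPM in the MAPK13-inhibitors libraries, and 59.5 FPKM (DMSO) and 40.4 FPKM (inhibitor) in the replicate 1 pair. The inhibitor libraries were lower in all 3 replicates and the groups were far apart compared with the spread within them. The log2 fold change was −0.83 with a standard error of 0.06 (edgeR quasi-likelihood test, Benjamini-Hochberg-adjusted p = 9.98e-07), while *Cd79a*, a B cell gene in the same libraries, had a log2 fold change of 0.18.

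*Ikzf1* (chr11:11684962-11772930, plus strand) encodes Ikaros, the founding member of the family. It was at 321 and 335 CPM with DMSO and at 316 and 309 CPM with MAPK13-inhibitors, and at 60.7 and 49.0 FPKM in the replicate 1 pair. The inhibitor values were the lower ones, by less than the distance between the controls at the closest point. The log2 fold change of −0.07 (standard error 0.05) did not pass the test (edgeR quasi-likelihood test, Benjamini-Hochberg-adjusted p = 0.268), and it was above 0 with upper-quartile scaling (0.01) and with library totals (0.06).

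*Ikzf5* (chr7:131388649-131410518, minus strand) encodes Pegasus, a more distant member of the family. Values of 27.9 and 24.7 CPM with DMSO and 26.1 and 21.6 CPM with MAPK13-inhibitors overlapped, and the log2 fold change of −0.14 (standard error 0.11) did not pass (edgeR quasi-likelihood test, Benjamini-Hochberg-adjusted p = 0.295). With library totals, and also without MAPK13-inhibitors replicate 3, it was −0.02, whereas without MAPK13-inhibitors replicate 2 it was −0.28 and passed (edgeR quasi-likelihood test, Benjamini-Hochberg-adjusted p = 0.00993). The replicate 1 pair had the opposite order, 7.69 FPKM (DMSO) and 10.2 FPKM (inhibitor). Of its 5721 annotated exon bases, 4835 are shared with *Pstk* and *Gm44624* on the other strand, and since the strand of the count libraries is not stated, reads of these genes may not have been told apart. The exons of the other 8 genes overlap those of no other gene in the annotation.

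*Ikzf2* and *Ikzf4*, which encode Helios and Eos and are best known from regulatory T cells, complete the family. *Ikzf2* was at 38.8 and 35.9 CPM with DMSO and at 36.3 and 37.7 CPM with MAPK13-inhibitors, with overlapping groups and a log2 fold change of −0.01 (edgeR quasi-likelihood test, Benjamini-Hochberg-adjusted p = 0.913). *Ikzf4* fell from 72.4 and 73.5 CPM to 28.2 and 36.4 CPM, a log2 fold change of −1.18 with a standard error of 0.11 (edgeR quasi-likelihood test, Benjamini-Hochberg-adjusted p = 5.53e-06). In the replicate 1 pair *Ikzf4* had the opposite order, 10.3 FPKM (DMSO) and 18.2 FPKM (inhibitor). The summed level of *Ikzf1*, *Ikzf3* and *Ikzf5* per kilobase was 83.9 and 86.4 with DMSO and 73.0 and 70.2 with MAPK13-inhibitors, and *Ikzf3* went from 28.1% and 27.9% of it to 18.8% and 18.5%.

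**Figure D2:**
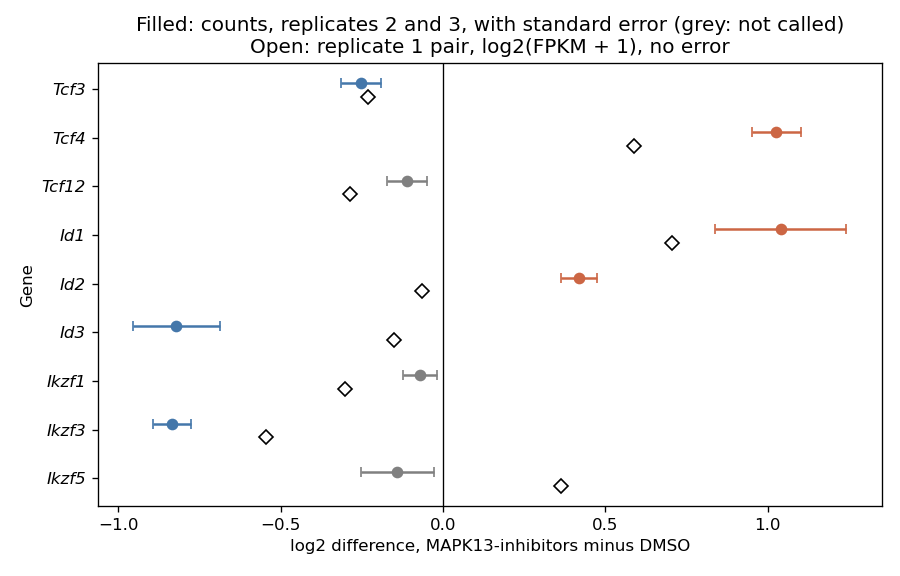
Log2 difference between MAPK13-inhibitors and DMSO for each gene, with filled circles for the 4 count libraries (bars, standard error; orange, higher; blue, lower; grey, not past the threshold) and open diamonds for the replicate 1 pair on the log2(FPKM + 1) scale, which has no error. *Tcf4* and *Id1* lie above 0 and *Ikzf3*, *Id3* and *Tcf3* below 0 in both, while *Id2* is at 0.42 in the counts and −0.06 in the pair.

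Ordered by CPM per kilobase, the DMSO libraries both ran *Id2*, *Tcf3*, *Ikzf1*, *Ikzf3*, *Id3*, *Tcf12*, *Ikzf5*, *Tcf4* and *Id1*. *Id2* led with 73.6 and 73.4. *Tcf3* (56.4 and 59.1) and *Ikzf1* (55.5 and 58.0) did not differ beyond their spread, and *Ikzf3* followed at 23.6 and 24.1. The lower 5 lay between 9.20 for *Id3* and 1.81 for *Id1*. With MAPK13-inhibitors *Id2* led again, at 95.7 and 101, and *Ikzf1* (54.7 and 53.4) stood above *Tcf3* (46.3 and 50.7), while *Id3* (4.48 and 5.55) overlapped *Tcf4* (5.65 and 5.02) and *Ikzf5* (4.56 and 3.78), and *Ikzf5* overlapped *Id1* (4.15 and 3.61). In the replicate 1 pair both libraries ran *Id2*, *Ikzf1*, *Ikzf3*, *Tcf3*, *Tcf12*, *Ikzf5*, *Id3*, *Tcf4* and *Id1* in FPKM, which used the authors' own gene lengths.

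The genes whose profile over the 4 count libraries was nearest to each of the 6 genes that differed were sought among the 9124 or 9125 other genes with at least 10 CPM on average. The measure was the Euclidean distance of log2 CPM centred on the DMSO mean. With 4 libraries such a profile holds little more than the size of the change and the order of replicates. *Tcf4* was nearest to *Dclre1c* (0.0125), a nuclease of antigen receptor rearrangement, then to *Mysm1* and *Niban3*. *Id1* was nearest to *Dclre1c* (0.023), *Tcf4* (0.0261) and *Niban3* (0.0405). *Niban3*, a gene of B cells, had a log2 fold change of 1.03 and was at 1.3 and 2.2 FPKM in the replicate 1 pair. *Id2* was nearest to *Hpcal1*, *Zfp617* and *Camsap1*, and *Id3* to *Adprh* (0.00599), *Cdca7* and *Rad9a*. *Ikzf3* was nearest to *Larp1* (0.0166), an RNA-binding protein of mRNAs for ribosomal proteins, *Klhdc2* and *Mcu*, and *Dlat* and *Itm2a* were among the nearest to *Tcf3*. Of the 15 distinct neighbours other than *Tcf4*, 13 kept their direction in the replicate 1 pair, where 75.3% of all genes called higher and 56.8% of those called lower did. The exceptions were 2: *Adprh* had a log2 fold change of −0.82 in the counts but was at 42.5 and 61.2 FPKM in the pair, and *Itm2a* had −0.25 but was at 15.8 and 55.7 FPKM.

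The promoters of *Id2* and *Id3* are shown because these genes of 1 family changed in opposite directions and are known to answer to E proteins and Egr factors. The RefSeq promoter table (GRCm38.p6), which holds 250 bases before and 50 from the start of each gene, matched 6 of the 9 genes, and *Id1*, *Tcf4* and *Ikzf3* had no match. The letters searched on both strands were the E box CANNTG, the Ikaros core TGGGAA and the Egr motifs GCGTGGGCG and GCGGGGGCG. Also searched was CAGGTG, 1 of the forms of the E box that E proteins bind, not the only one. Capitals mark the E box, of which *Id2* has 1, with its first base 196 bases before the start (position −196), and *Id3* has 0. The sequences run 5′ to 3′ on the strand of the gene, chr12:25096043-25096342 (minus strand) for *Id2* and chr4:136143572-136143871 (plus strand) for *Id3*.
Id2: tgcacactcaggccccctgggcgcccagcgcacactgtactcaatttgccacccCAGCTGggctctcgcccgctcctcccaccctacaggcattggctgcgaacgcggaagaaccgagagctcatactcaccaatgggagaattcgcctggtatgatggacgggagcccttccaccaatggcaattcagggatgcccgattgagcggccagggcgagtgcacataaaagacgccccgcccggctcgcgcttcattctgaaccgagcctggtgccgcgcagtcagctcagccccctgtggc
Id3: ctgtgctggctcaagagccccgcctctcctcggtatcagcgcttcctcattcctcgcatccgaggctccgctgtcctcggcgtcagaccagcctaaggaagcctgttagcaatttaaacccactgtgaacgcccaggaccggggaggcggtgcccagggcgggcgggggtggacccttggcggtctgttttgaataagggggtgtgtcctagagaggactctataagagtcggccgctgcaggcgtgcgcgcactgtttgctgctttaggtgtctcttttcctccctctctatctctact
An E box is in 72.3% of the 32851 promoters of this length in the table, CAGGTG in 20.2%, TGGGAA in 25.6%, GCGTGGGCG in 0.612% and GCGGGGGCG in 2.91%. CAGGTG had 0 matches, and so had TGGGAA and both Egr motifs, in the windows of *Id2* and *Id3*. A match, or its absence from this window, describes letters only.

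Beyond the 9 genes, 101 genes of the same pathways were listed, 94 of them were tested, and 28 were higher and 40 lower with MAPK13-inhibitors, where 31.5% and 32.3% of all genes tested were. Their median log2 fold change was −0.12 against 0.01 over all genes. These shares are also the background for the counts of each list below. In the replicate 1 pair, 39.3% of the tested genes with a value were lower with the inhibitor. Of the genes listed around Id induction, the Egr transcription factors fell and several Smad genes rose. Smads mediate BMP and transforming growth factor β (TGF-β) signals or, as *Smad7* does, inhibit them. *Egr1*, an immediate early gene of T cell receptor signals, was at 341 and 332 CPM with DMSO and at 49.8 and 47.1 CPM with MAPK13-inhibitors. *Egr3*, a relative that restrains T cell responses, was at 154 and 144 CPM and at 25.9 and 34.4 CPM. *Smad7*, the inhibitory Smad, was at 45.8 and 45.8 CPM and at 169 and 173 CPM. The groups were far apart for all 3, with *Egr1* and *Egr3* low and *Smad7* high in both inhibitor libraries. Their log2 fold changes were −2.80, −2.31 and 1.90 (edgeR quasi-likelihood test, Benjamini-Hochberg-adjusted p = 1.61e-09, 1.08e-07 and 1.28e-08). The replicate 1 pair kept the direction for *Egr1* (56.1 to 37.3 FPKM) and *Smad7* (4.74 to 8.95 FPKM) but not for *Egr3* (9.63 to 12.2 FPKM) or *Egr2*. Of the 16 genes of this list, 7 were higher, the inhibitory *Smad7* among them. The 3 lower ones were *Egr1*, *Egr2* and *Egr3*, and the median was 0.30.

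All 5 genes listed for the turnover of Id and E proteins passed the test, 4 lower and 1 higher, where 63.8% of all genes tested passed. *Usp1* encodes the deubiquitinase that stabilizes Id proteins, and *Wdr48* its activating subunit. *Wdr48* was at 74.4 and 77.2 CPM with DMSO and at 30.3 and 28.6 CPM with MAPK13-inhibitors, and *Usp1* at 102 and 99.1 CPM and at 78.2 and 81.3 CPM. Both were lower in each inhibitor library, with log2 fold changes of −1.37 and −0.33 (edgeR quasi-likelihood test, Benjamini-Hochberg-adjusted p = 2.07e-07 and 0.000862). *Cdc20* and *Fzr1*, activators of the anaphase-promoting complex that marks Id proteins for degradation, also fell (−1.08 and −0.74), and *Skp2*, an F-box protein of a ubiquitin ligase, rose (1.19). In the replicate 1 pair 5 of the 5 were lower, *Skp2* included, at 3.57 and 3.16 FPKM.

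Of 12 bHLH partners and LIM adaptors, 10 were tested, 3 were higher and 5 were lower (3 lower with upper-quartile scaling). Over all genes tested, 31.5% were higher and 32.3% were lower. *Hes1*, a repressor induced by Notch that is also counted among Ikaros targets, had the smallest p-value. It was at 0.194 and 0.625 CPM with DMSO and at 7.30 and 8.06 CPM with MAPK13-inhibitors, near absence in the controls. Its log2 fold change was 4.20 with a standard error of 0.32 (edgeR quasi-likelihood test, Benjamini-Hochberg-adjusted p = 1.73e-06), and the replicate 1 pair went from 0.0629 to 0.62 FPKM. *Lmo2*, an adaptor that joins bHLH factors to GATA factors, fell (−1.09), and *Bhlhe41*, a bHLH repressor, rose (1.11), but *Lmo2* had the opposite order in the pair (2.59 to 4.93 FPKM). Of the E protein cofactors 3 were higher and 2 lower of 6 tested (1 lower with upper-quartile scaling). The paralogous acetyltransferase genes *Crebbp* and *Ep300* differed in direction, *Crebbp* with 107 and 110 CPM against 169 and 149 CPM and *Ep300* with 197 and 189 CPM against 158 and 156 CPM. *Crebbp* was high and *Ep300* low in both inhibitor libraries, with log2 fold changes of 0.55 and −0.30. The pair differed by little for either, at 7.92 and 7.91 FPKM for *Crebbp* and 16.8 and 17.6 FPKM for *Ep300*. *Cbfa2t2* and *Kat2b* were higher (0.65 and 0.32), *Kat2a* was lower (−0.29), and *Cbfa2t3* did not pass.

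Among 14 target genes of E proteins, 11 were tested, 5 were higher and 3 were lower, against 31.5% and 32.3% of all genes tested. *Gfi1*, a zinc finger repressor, fell from 94.2 and 107 CPM to 50 and 48.4 CPM, a log2 fold change of −1.03. It was low in each inhibitor library, but higher with the inhibitor in the replicate 1 pair (51.3 to 66.5 FPKM). The genes that rose were *Il7r*, *Ebf1*, *Cxcr5*, *Cd79a* and *Cd79b*, of which *Ebf1*, *Cd79a* and *Cd79b* are also B cell markers and *Cxcr5* is also expressed by B cells. *Cd79a* and *Cd79b* were lower with the inhibitor in the pair (9.40 to 5.44 and 16.4 to 14.0 FPKM).

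Of 6 genes known beside *Id2* in effector cells, 0 were higher (1 under RLE, upper-quartile or library-total scaling) and 3 were lower: *Gzmb* (−0.97), a granule protease, *Klrg1* (−1.68), a receptor of terminal effectors, and *Il2ra* (−1.27), the high-affinity interleukin-2 receptor chain. *Il2ra* was at 963 and 963 CPM with DMSO and at 368 and 430 CPM with MAPK13-inhibitors, and at 384 and 237 FPKM in the pair, low with the inhibitor in every replicate. *Tbx21*, *Prdm1* and *Cx3cr1* did not pass, and 50% of this list did, against 63.8% of all genes tested. In the pair 4 of the 6 were higher with the inhibitor, *Gzmb* among them (36.2 to 104 FPKM). Of 7 genes known beside *Id3* in memory and follicular cells, 5 were higher and 1, *Lef1*, was lower, as *Id3* was. Over all genes tested, 31.5% were higher and 32.3% were lower. *Lef1*, a partner of TCF1 from another family than the E proteins, was at 146 and 154 CPM with DMSO and at 79.2 and 80.2 CPM with MAPK13-inhibitors (−0.91). It was low in both inhibitor libraries, with a Benjamini-Hochberg-adjusted p of 7.34e-07 in the edgeR quasi-likelihood test. *Tcf7* (0.29), *Ccr7* (0.21), *Il7r* (0.40) and *Cxcr5* (0.38) were among the genes that rose, and *Bcl6* did not pass. In the replicate 1 pair 7 of the 7 were higher, where 39.3% of the tested genes with a value were lower.

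**Figure D3:**
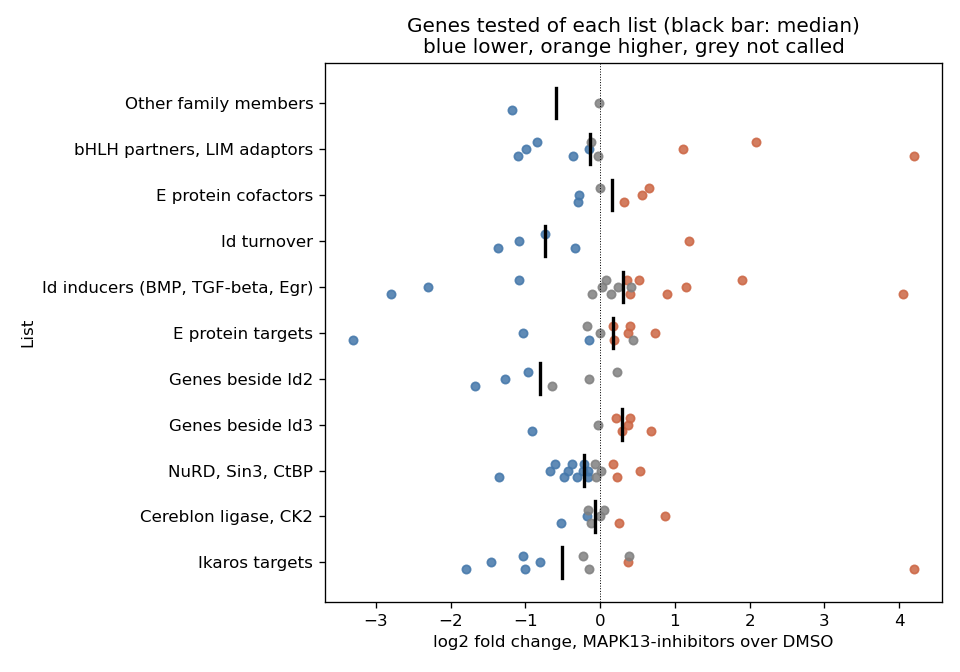
Log2 fold change of every tested gene in each list of pathway genes (blue, lower; orange, higher; grey, not past the threshold; black bars, medians of the lists; height within a list carries no meaning). The median is −0.74 for Id turnover and 0.30 for the Id inducer list, which includes the inhibitory *Smad7*. The spread of that list runs from *Egr1* at −2.80 to *Smad9*, which had 2 and 0 counts in the DMSO libraries.

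Ikaros factors act through the NuRD, Sin3 and CtBP corepressor complexes. Of 17 genes of these complexes, all tested, 11 were lower and 3 were higher, with a median of −0.21. Over all genes tested, 32.3% were lower and 31.5% were higher. The changes were small for most. *Rbbp7*, a histone-binding subunit, was at 234 and 239 CPM with DMSO and at 160 and 152 CPM with MAPK13-inhibitors, a log2 fold change of −0.60. *Ctbp1*, a corepressor, was at 227 and 228 CPM and at 162 and 164 CPM (−0.48), whereas *Sin3b*, a scaffold of deacetylase complexes, was at 136 and 137 CPM and at 202 and 191 CPM (0.53). *Rbbp7* and *Ctbp1* were low and *Sin3b* high in both inhibitor libraries (edgeR quasi-likelihood test, Benjamini-Hochberg-adjusted p = 7.21e-06, 2.42e-05 and 2.11e-05), and all 3 kept their direction in the replicate 1 pair. With libraries scaled by their totals, 6 of the genes of these complexes were lower.

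Cereblon is the ubiquitin ligase receptor through which thalidomide analogs degrade Ikaros and Aiolos, and casein kinase 2 phosphorylates Ikaros. Of 8 genes of the ligase and the kinase, 2 were higher and 2 were lower (1 lower with RLE scaling). The shares over all genes tested were 31.5% and 32.3%. *Crbn*, which encodes cereblon, was at 47.9 and 49.8 CPM with DMSO and at 34.1 and 34.0 CPM with MAPK13-inhibitors (−0.52), and *Cul4b*, a scaffold of the ligase, was at 37.0 and 37.5 CPM and at 70.4 and 65.4 CPM (0.86). The groups did not overlap for either, though the replicate 1 pair differed by little, at 20.2 and 19.0 FPKM for *Crbn* and 10.04 and 10.1 FPKM for *Cul4b*. *Ddb1* was higher (0.25), *Cul4a* was lower (−0.17), and *Rbx1*, *Csnk2a1*, *Csnk2a2* and *Csnk2b* did not pass.

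Of 11 targets of Ikaros factors, 10 were tested, 2 were higher and 5 were lower, with a median of −0.52. The shares over all genes tested were 31.5% higher and 32.3% lower. *Bcl2*, a survival gene, was at 429 and 441 CPM with DMSO and at 152 and 165 CPM with MAPK13-inhibitors, and *Myc*, a growth regulator, at 265 and 295 CPM and at 132 and 147 CPM. Both were low in each inhibitor library, with log2 fold changes of −1.46 and −1.0 (edgeR quasi-likelihood test, Benjamini-Hochberg-adjusted p = 3.73e-08 and 1.19e-06). *Il2*, the cytokine gene that Ikaros and Aiolos repress, is given as well, chosen after its values were seen. It was at 46.3 and 56.8 CPM with DMSO and at 11.9 and 17.9 CPM with MAPK13-inhibitors, but at 6.04 FPKM (DMSO) and 71.1 FPKM (inhibitor) in the replicate 1 pair. *Il2* was thus low with the inhibitor in replicates 2 and 3 and high in replicate 1. Whether its level is related to that of *Ikzf3* was not tested. Of the 11 genes, 9 were higher in the pair and 1 was lower (*Bcl2*, 53.2 to 24.5 FPKM), and what differs between the pair and the other libraries besides the kit cannot be told apart.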

How the data were processed

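The authors deposited raw counts per gene for replicates 2 and 3 of each group, on mm10, with fastp 0.21.0, HISAT2 2.1.0, StringTie 2.1.5 and DESeq2 1.30.1 named in the submitters' processing notes. For replicate 1 the authors deposited values read here as FPKM, already scaled by gene length, with no unit named. The annotation is not given in the sources used here, and 0 columns were left unused. The test ran in edgeR 4.0.16 under R 4.3.3 (filterByExpr with a minimum count of 10 and a minimum total of 15, TMM factors of 0.96, 0.955, 1.05 and 1.04, quasi-likelihood test, Benjamini-Hochberg adjustment over 16269 genes), checked on simulated counts. Counting floors use 3 counts and cover counting error only. Libraries within a group differed beyond sampling noise (mean chi-square per gene of 2.94 and 8.82). Gene positions and promoters came from RefSeq GRCm38.p6, and exon lengths from GENCODE vM21 on the same build.

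The 9 genes and all lists were chosen with earlier results of these data known. Named were all members, all other family members, at most the 3 genes of smallest p of a list (any gene of a list of up to 8), marker genes, and the 3 nearest profiles of each member that passed. *Egr2*, *Smad9* and *Il2* were named beyond these limits. *Trac*, *Ighm* and *Ighd* were not analysed here. A few genes within these limits are not reported here. Alternatives were RLE, upper-quartile and library-total scaling, no filter, at least 10 counts in every library, a replicate block, DESeq2 1.42.0, each library left out, a pseudocount of 0.1, and a minimum of 1 FPKM.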

Additional observations from a re-analysis of the deposited data

How the results depend on the processing

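Under all 11 alternatives for the counts *Tcf4*, *Id1*, *Id2*, *Id3* and *Ikzf3* kept their direction and passed. The log2 fold change of *Tcf3* was −0.128 with library totals, where it did not pass. The small change of *Ikzf1* was reversed with upper-quartile scaling (0.0109) and library totals (0.0557), and that of *Tcf12* with library totals (0.0146). Relative to the median of all genes, *Ikzf1* was at −0.081 and *Tcf12* at −0.122 with either TMM factors or library totals. This sameness follows from the shift that all genes share and is no separate evidence. *Ikzf2*, near 0 throughout, was reversed with RLE (0.00261), upper-quartile scaling (0.0693), library totals (0.114), at least 10 counts in every library (0.0336) and DESeq2 (0.00257). Leaving out each library in turn, with the lone library of a group assumed to vary like the others, gave −0.148 to −0.0815 for *Tcf12*, −0.282 to −0.0198 for *Ikzf5* and −0.076 to 0.033 for *Ikzf2*, and *Tcf12* and *Ikzf5* passed without MAPK13-inhibitors replicate 2. The cause was not tested. Samples share only a replicate number, and the difference between replicates 2 and 3 was not correlated between the groups (r = −0.00641). With the number as a block 10645 genes and 6 of the 9 passed. Calls of list genes with small changes were often lost under other scalings. With library totals 33 listed genes were higher and 29 lower, against 28 and 40, as all genes went from 5122 and 5252 to 6176 and 4302.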

Other observations

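Markers of other cell types were read in the same libraries, beside the genes described above, as values only. Markers of conventional dendritic cells were low but higher with MAPK13-inhibitors: 4 of 4 tested were higher, the sum went from 19.2 and 19.5 CPM to 58.9 and 49.3 CPM, *Zbtb46* was the most abundant, and *Clec9a* had 0 counts in both DMSO libraries. Of 5 macrophage markers tested 4 were higher, with sums of 12.4 and 11.0 CPM against 39.7 and 32.7 CPM, mostly *Cd68*, and *Mrc1* and *C1qa* at 0 counts in both DMSO libraries. Erythroid markers summed to 7.83 and 7.43 CPM with DMSO and 89.7 and 64.2 CPM with MAPK13-inhibitors, with *Hbb-bs* the most abundant and 5 of 6 tested higher. Plasma cell markers were split, with *Jchain* and *Sdc1* higher and *Irf4* and *Xbp1*, which activated T cells also express, lower, and their sum went from 977 and 984 CPM to 586 and 642 CPM, mostly *Irf4*. Both CD8 T cell markers were lower, with sums of 11.7 and 10.9 CPM against 5.49 and 7.85 CPM, mostly *Cd8b1*, but both were higher with the inhibitor in the replicate 1 pair, with sums of 3.49 and 8.39 FPKM. Natural killer cell markers summed to 1.75 and 2.57 CPM with DMSO and 2.11 and 2.30 CPM with MAPK13-inhibitors, mostly *Eomes*, and 0 of 2 tested passed in edgeR's quasi-likelihood test. Neutrophil markers stayed under 1 CPM in sum in each library, with 1 tested and higher (*Mpo*) and *S100a9* at 0 counts in all 4. The part of these transcripts in the levels of the E protein, Id and Ikaros genes was not tested.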
